A study of Homo sapiens with 12 samples.

Results

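Most DDX and DHX genes encode RNA helicases, enzymes that use ATP to open RNA duplexes or to strip proteins from RNA. The genes here were chosen by name: every row of the gene table named DDX or DHX, digits and an optional A, B, X or L. Left out were DDX5, DDX6, DDX17, DDX21, DDX58, DHX9 and DHX58. The name also took in DDX11, a DNA helicase, and DDX26B, now named INTS6L. The rule gave 48 genes of 55765 rows, from 55 rows that match the name pattern and 7 left out. The family was picked because its DDX genes had been seen to be higher after ERI2 siRNA in these same libraries. Counts, medians and per-gene tests of that contrast therefore describe the family and are not independent evidence of a shift.

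The groups were HEK293T cells, a human embryonic kidney line carrying a viral large T antigen, given ERI2 siRNA or a control siRNA labelled C2, with 3 RNA-seq libraries each. Both groups received 50 nM siRNA in repeated transfections 48 hours apart and were harvested 72 hours after the second, per the labels' protocols, whose growth text names HEK293. ERI2 is an exonuclease related to ERI1 and ERI3. The labels name no further ERI2 siRNA and no rescue, so low ERI2 and off-target action cannot be told apart. Whether replicates came from separate cultures is not labelled, and p-values rest on a spread that may be technical.

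DEAD-box (DDX) and DEAH-box (DHX) proteins are named after the amino acids of a conserved ATP-binding motif. DEAD-box proteins mostly open short duplexes locally, whereas many DEAH-box proteins pull along a strand and are switched on by partners with a G-patch domain. In dividing cells such helicases drive spliceosome rearrangements, nucleolar steps of ribosome assembly, mRNA export, translation initiation and decay.

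ERI2 mRNA matched the labels in all 6 libraries, with 34.6, 35.8 and 32.5 CPM after ERI2 siRNA, against 54.4, 58.2 and 54.4 CPM in control libraries (log2 fold change -0.70, SE 0.0762, adjusted p = 0.000683 by edgeR). CPM are counts per 1000000 counts of a library size scaled by TMM, and they are not divided by gene length. Libraries held 29143596 to 32646277 counts after ERI2 siRNA and 30099367 to 38306631 in the control group. The first principal component of 10315 genes, 56.2% of the variance, ordered the libraries by group, with scores of 2.76, 10.8 and 15.7 after ERI2 siRNA and -3.91, -15.1 and -10.2 in control libraries. The second, 23.9%, set the libraries numbered 1 apart, at 11.8 for ERI2 siRNA and -12.3 for control, with the others between -1.41 and 3.20. The labels name no batch. Of 10 markers of HEK293 lines, NEFL and INA fell, and the summed level was 316 to 363 CPM after ERI2 siRNA and 354 to 411 CPM in the control group, DCX being below the count filter. Of 6 keratinocyte and cervical line markers, KRT5 and KRT6A were at 0 in every library and CAV1, CDH1 and EPCAM fell, with sums of 14.8 to 16.8 CPM after ERI2 siRNA against 24.5 to 25.6 CPM in control libraries. Sums were 3.09 to 3.33 against 3.08 to 4.43 CPM for 6 blood markers, with CD3E and HBB at 0 throughout. For 6 fibroblast markers they were 13.8 to 18.1 against 15.7 to 19.0 CPM, with COL1A2 at 0 and COL3A1 lower. COL1A1, LUM and PDGFRA did not pass, with log2 fold changes of 0.31, 0.25 and -0.48. For 4 hepatocyte markers the sums were 0.267 to 0.507 against 0.0853 to 0.279 CPM, with SERPINA1 at 0. The part of these markers in the results on the helicases was not tested, and in bulk RNA fewer cells of a type and less RNA per cell cannot be told apart.

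Promoter windows of 5 of the 7 members past the test described next are shown, 4 of them higher and 1 lower after ERI2 siRNA, to show windows with and without the marked motifs. The sequences are RefSeq windows of GRCh38.p14, 250 bases before to 50 after the annotated start, 5′ to 3′ on the gene's strand, while the submitters' notes name hg19 for the counts. Capitals mark CCGGAAG, the core of the ETS factor motif, or CACGTG, the E-box, on either strand. The DHX34 window is chr19:47349065-47349364 (plus strand) and the DHX37 window is chr12:124989082-124989381 (minus strand). The DDX56 window is chr7:44573859-44574158 (minus strand) and the DHX32 window is chr10:125881243-125881542 (minus strand). The DDX41 window is chr5:177516912-177517211 (minus strand).
DHX34: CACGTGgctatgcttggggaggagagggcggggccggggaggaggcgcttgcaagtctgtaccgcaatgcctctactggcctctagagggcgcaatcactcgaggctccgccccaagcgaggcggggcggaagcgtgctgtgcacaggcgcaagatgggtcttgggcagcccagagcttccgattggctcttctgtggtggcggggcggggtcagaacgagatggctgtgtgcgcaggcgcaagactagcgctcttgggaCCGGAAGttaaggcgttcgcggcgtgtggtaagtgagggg
DHX37: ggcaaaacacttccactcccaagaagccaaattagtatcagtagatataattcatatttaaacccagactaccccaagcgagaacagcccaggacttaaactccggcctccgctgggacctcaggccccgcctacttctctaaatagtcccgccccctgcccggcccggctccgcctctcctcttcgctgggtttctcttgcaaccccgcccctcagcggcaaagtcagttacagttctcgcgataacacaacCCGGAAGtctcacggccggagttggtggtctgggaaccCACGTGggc
DDX56: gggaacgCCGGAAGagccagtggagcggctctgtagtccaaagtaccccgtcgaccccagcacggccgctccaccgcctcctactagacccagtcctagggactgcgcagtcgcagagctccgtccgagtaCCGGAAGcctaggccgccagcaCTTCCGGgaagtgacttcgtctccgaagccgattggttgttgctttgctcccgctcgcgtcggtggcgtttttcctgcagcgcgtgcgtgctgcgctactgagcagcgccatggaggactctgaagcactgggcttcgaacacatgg
DDX41: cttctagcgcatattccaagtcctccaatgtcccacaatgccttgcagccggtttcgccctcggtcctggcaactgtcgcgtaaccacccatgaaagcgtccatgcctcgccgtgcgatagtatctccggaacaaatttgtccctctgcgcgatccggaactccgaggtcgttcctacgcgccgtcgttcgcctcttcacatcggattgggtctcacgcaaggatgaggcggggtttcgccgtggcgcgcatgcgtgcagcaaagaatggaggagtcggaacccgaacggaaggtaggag
DHX32: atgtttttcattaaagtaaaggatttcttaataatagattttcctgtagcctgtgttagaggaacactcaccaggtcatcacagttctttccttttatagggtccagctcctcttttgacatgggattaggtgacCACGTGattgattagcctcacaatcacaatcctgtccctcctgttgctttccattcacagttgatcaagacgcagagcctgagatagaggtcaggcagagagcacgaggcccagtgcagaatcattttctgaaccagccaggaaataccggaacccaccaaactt

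The DHX34 and DHX37 windows held 1 match of CCGGAAG and 1 of CACGTG each, and DDX56 held 3 of CCGGAAG and none of CACGTG. DDX41, which also rose, held neither. The window of DHX32, the member that fell, held no CCGGAAG, 1 CACGTG and 4 CG dinucleotides, the fewest among the 39 tested members with a window, whose median was 25. A window was found for 44 of 48 members, DDX26B through its present symbol INTS6L, and the first promoter of each gene in the table was used. CCGGAAG was in 18 of the 39 windows, or 46.2%, against 18.2% of 11525 windows of tested genes and 10.7% of all 27305. Of those 18, DHX34, DHX37, DDX56 and DDX46 passed the test. The others, DDX1, DDX19A, DDX27, DDX31, DDX39B, DDX42, DDX47, DDX50, DHX8, DHX16, DHX30, DHX36, DHX38 and DHX57, did not. CACGTG was in 7 of 39 windows, or 17.9%, against 9.96% of windows of tested genes and 7.43% of all. Of the 7 members past the test, 4 had CCGGAAG, and 4 had CACGTG, namely DHX32, DHX37, DDX54 and DHX34. DDX31, DHX35 and DHX40 also had CACGTG and did not pass.

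The shares of the other motifs lay on either side of those of the tested genes. CCAAT was in 46.2% of the members' windows against 36.9% of those of tested genes and 35.7% of all, and GGGCGG, the GC box, in 56.4% against 69.4% and 44.6%. TATAAA was in 5.13% against 5.92% and 12.0%, and the NRF1 motif in 15.4% against 15.6% and 8.78%. AAGATGGCG, a YY1 motif, was in 5.13% against 3.75% and 1.85%, and TGACGTCA, the CRE, in 12.8% against 3.25% and 1.98%, which is 5 members. All were searched on both strands, and matches of different motifs overlapped in 1 member, DDX10, between CCAAT and TGACGTCA. Matches are letters in a window, and none was tested as a binding site.

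Of the 48 members, 43 passed the filter on low counts and were tested. DHX34, a factor of nonsense-mediated decay, DHX37, DDX54 and DDX56, nucleolar helicases of ribosome assembly, and DDX41 and DDX46, helicases of the spliceosome, were higher after ERI2 siRNA. DHX32, a DEAH-box protein with no role assigned here, was lower. These 6 higher and 1 lower are 14% and 2.33% of the tested members, against 4.29% and 4.25% of all 18843 genes tested and 8.54% in either direction (quasi-likelihood test of edgeR, Benjamini-Hochberg adjusted p under 0.05). Nothing is read from these shares, since the same contrast chose the family. Scaled by total library size the split was 10 higher and 0 lower among the members and 976 higher and 463 lower among all genes, or 5.18% and 2.46%, against 809 and 800 under TMM.

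All differences were small. Log2 fold changes of the tested members lay between -0.46 and 0.46, with a median of 0.05 and quartiles of -0.04 and 0.24. Over all tested genes the median was 0.003, with quartiles of -0.15 and 0.21, and 2.59% differed at least 2-fold, which no member did. The log2 fold change was above 0 for 28 of 43 members, or 65.1%, against 50.5% of all genes. Summed over the 48 members, the family took 0.475%, 0.484% and 0.483% of all counts after ERI2 siRNA, against 0.445%, 0.456% and 0.432% in control libraries. On these raw shares the groups did not overlap. On the TMM scale the sums were 4815, 4685 and 4647 CPM after ERI2 siRNA, against 4360, 4723 and 4536 CPM in control libraries, and the groups overlapped.

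**Figure D1:**
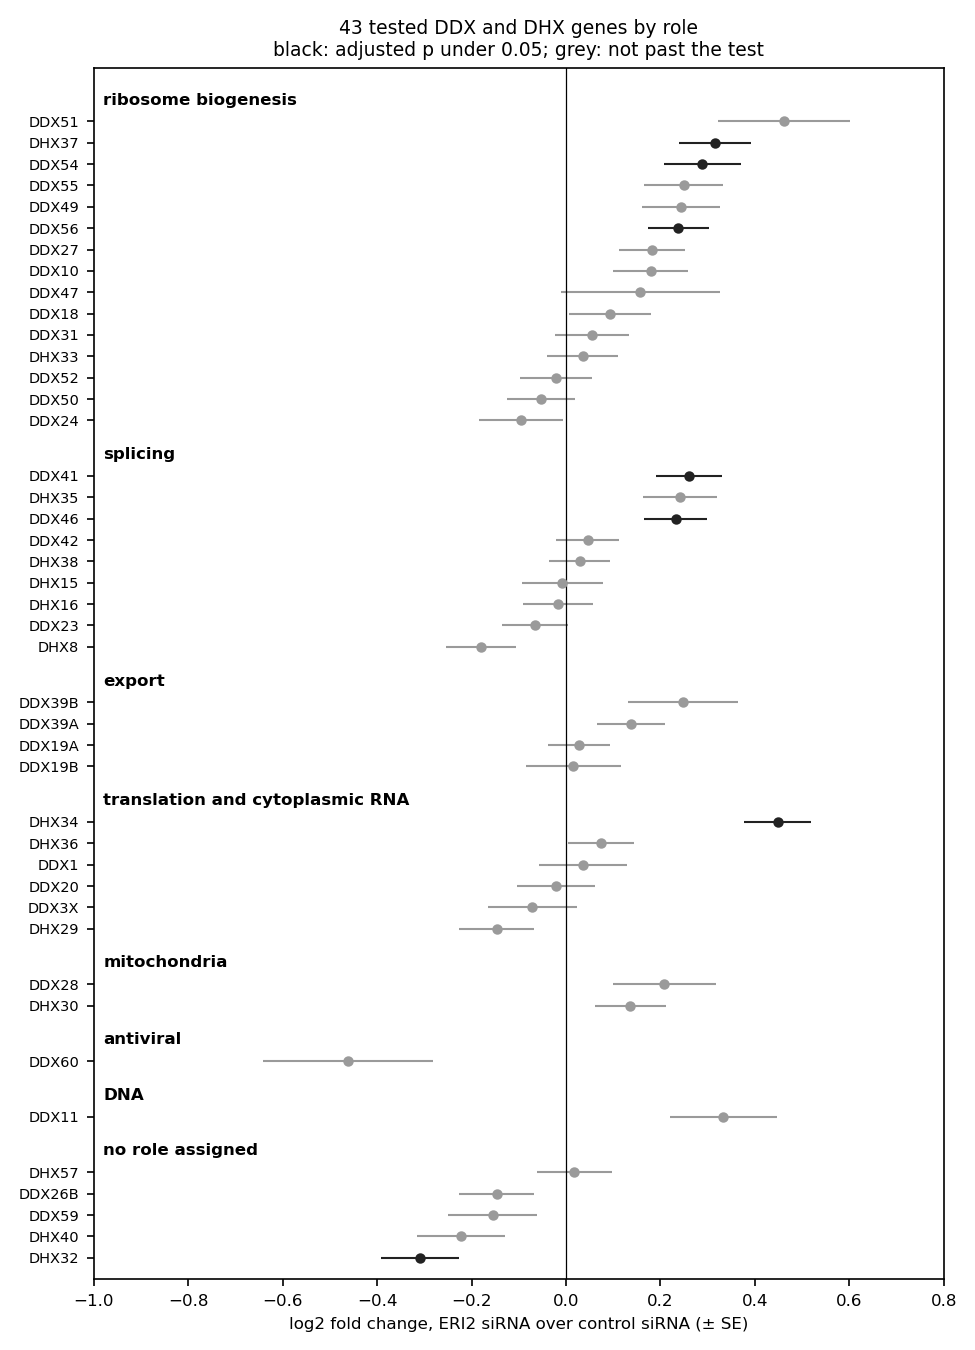
Log2 fold change of ERI2 siRNA over control siRNA (x axis) with its standard error for the 43 tested members, grouped by role down the page, black where the adjusted p is under 0.05. The 6 black points right of 0 are in ribosome biogenesis, splicing and translation and cytoplasmic RNA, and the 1 left of 0 is DHX32.

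DHX34 had the smallest p of the family. Its level was 80.0, 79.7 and 85.9 CPM after ERI2 siRNA, against 61.2, 57.4 and 61.4 CPM in control libraries. The groups did not overlap, and the ERI2 siRNA mean was 136% of the control mean. The log2 fold change was 0.45 (SE 0.0702, adjusted p = 0.00393 by edgeR), from 81.9 ± 3.49 CPM with ERI2 siRNA and 60.0 ± 2.24 CPM with control siRNA (SD, n = 3 each). DHX34 passed in all 15 alternatives of test, scaling, filter and libraries, with log2 fold changes from 0.41 to 0.51 and adjusted p from 3.83e-06 to 0.0424. The other 5 members with a cytoplasmic or translational role did not pass. DHX36, which unwinds G-quadruplexes, had 98.9, 95.7 and 98.7 CPM after ERI2 siRNA, against 90.4, 99.3 and 88.7 CPM in control libraries. DHX29, which helps ribosomes scan structured leaders, had 81.0, 74.3 and 74.1 CPM after ERI2 siRNA, against 77.8, 92.9 and 83.3 CPM in control libraries. Both pairs of groups overlapped, with log2 fold changes of 0.07 and -0.15. DDX3X, a translation initiation helicase, had 661, 659 and 583 CPM after ERI2 siRNA, against 623, 725 and 651 CPM in control libraries, again overlapping. DDX1, part of the tRNA ligase complex, and DDX20, a gemin of the SMN complex, had log2 fold changes of 0.04 and -0.02.

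Ribosome assembly helicases were the largest role, with 15 members, all tested. Of these 3 rose and none fell (12 of the 15 log2 fold changes were above 0), with a median of 0.18. Among all 18843 genes tested 4.29% rose and 4.25% fell by the same rule, and 50.5% had a log2 fold change above 0. At an unadjusted p under 0.05 the counts were 8 higher and 0 lower, and DESeq2 called 4 higher, limma-voom 3 higher, and both 0 lower. Of all tested genes, 13.4% were higher and 13.1% lower at that unadjusted p, 5.48% and 5.45% in DESeq2, and 4.18% and 3.99% in limma-voom. DHX37, whose yeast counterpart acts on small-subunit precursors, had 55.1, 59.3 and 56.6 CPM after ERI2 siRNA, against 42.3, 47.6 and 47.5 CPM in control libraries. DDX56, counterpart of a yeast large-subunit assembly factor, had 113, 112 and 113 CPM after ERI2 siRNA, against 93.1, 97.0 and 96.7 CPM in control libraries. DDX54, counterpart of another yeast factor of the large subunit, had 100.3, 94.9 and 98.0 CPM after ERI2 siRNA, against 72.6, 77.5 and 90.0 CPM in control libraries. In each of these 3 the lowest ERI2 siRNA library lay above the highest control library. The log2 fold changes were 0.32 for DHX37 (SE 0.0767, adjusted p = 0.0236), 0.24 for DDX56 (SE 0.0645, adjusted p = 0.0366) and 0.29 for DDX54 (SE 0.0816, adjusted p = 0.0428), by edgeR.

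DDX55, DDX49 and DDX27, whose yeast counterparts are also ribosome assembly factors, did not pass although their groups did not overlap. DDX55 had 74.3, 71.1 and 81.2 CPM after ERI2 siRNA, against 69.8, 62.8 and 57.9 CPM in control libraries (log2 fold change 0.25, adjusted p = 0.0769 by edgeR). DDX49 had 55.3, 48.6 and 53.4 CPM after ERI2 siRNA, against 41.4, 43.6 and 48.0 CPM in control libraries (0.24, adjusted p = 0.0808 by edgeR). The nearest libraries of the groups were closer to each other than to the rest of their own group in DDX49 and in DDX55. DDX27 had 91.4, 81.5 and 83.7 CPM after ERI2 siRNA, against 74.5, 76.1 and 75.6 CPM in control libraries (0.18, adjusted p = 0.114 by edgeR). DDX10, DDX18, DDX31, DDX47 and DHX33 had log2 fold changes from 0.04 to 0.18, and DDX24, DDX50 and DDX52 from -0.10 to -0.02. All 8 had overlapping groups. Of these DDX24 had 201, 174 and 166 CPM after ERI2 siRNA, against 172, 206 and 201 CPM in control libraries.

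Spliceosome helicases had 9 tested members, of which 2 rose and none fell, with a median log2 fold change of 0.03. By that rule 4.29% of all tested genes rose and 4.25% fell. At an unadjusted p under 0.05 the counts were 3 higher and 1 lower, and DESeq2 and limma-voom called 2 higher and 0 lower each. The shares of all genes under these other rules are those given for ribosome assembly. DDX41, found in late spliceosomes, had 96.4, 94.3 and 101.4 CPM after ERI2 siRNA, against 77.0, 85.3 and 81.3 CPM in control libraries. DDX46, which prepares the branch site for the spliceosome, had 155, 156 and 163 CPM after ERI2 siRNA, against 135, 137 and 131 CPM in control libraries. Neither pair of groups overlapped, and the log2 fold changes were 0.26 (SE 0.0698, adjusted p = 0.0345) and 0.23 (SE 0.0663, adjusted p = 0.0449), by edgeR. DHX35, another protein of late spliceosomes, had 29.1, 30.0 and 29.9 CPM after ERI2 siRNA, against 26.1, 24.6 and 24.6 CPM in control libraries. Its groups did not overlap either, but it did not pass (0.24, adjusted p = 0.0709 by edgeR). The other 6 splicing members had overlapping groups and did not pass. DHX8, which releases finished mRNA, had 131, 119 and 123 CPM after ERI2 siRNA, against 130, 147 and 146 CPM in control libraries (-0.18, adjusted p = 0.137 by edgeR). DHX15, which takes spent spliceosomes apart, had 300, 279 and 264 CPM after ERI2 siRNA, against 258, 311 and 279 CPM in control libraries, and its groups overlapped. DDX23, an activator of the spliceosome, had 180, 176 and 172 CPM after ERI2 siRNA, against 174, 195 and 183 CPM in control libraries. DHX16, DHX38, DDX23 and DDX42 had log2 fold changes from -0.07 to 0.05.

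**Figure D2:**
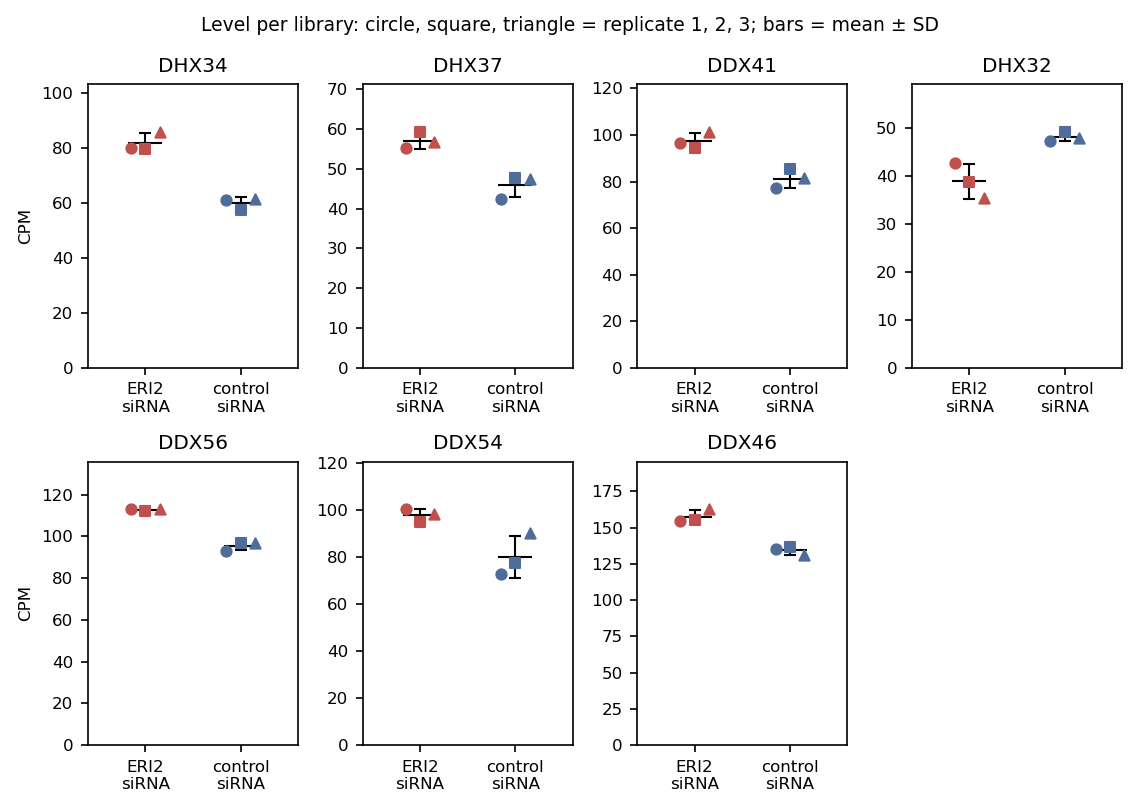
Level in CPM (y axis, from 0) of the 7 members past the test in each library, ERI2 siRNA in red and control siRNA in blue, with mean and SD as bars. In DHX34 the ERI2 siRNA libraries sit between 79.7 and 85.9 CPM, above the control libraries between 57.4 and 61.4 CPM; DHX32 runs the other way.

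No member of the export role passed among 4 tested in edgeR, DESeq2 or limma-voom, and 0 had an unadjusted p under 0.05. DDX39B, which loads export factors onto mRNA and also acts in splicing, had 124, 160 and 161 CPM after ERI2 siRNA, against 149, 110 and 115 CPM in control libraries (0.25, adjusted p = 0.194 by edgeR). The groups overlapped, and the libraries numbered 1 ran opposite to the others. DDX39A, its close paralog, had 107, 101 and 110 CPM after ERI2 siRNA, against 91.0, 94.9 and 103 CPM in control libraries. DDX19A and DDX19B, which release export factors at the nuclear pore, had 88.2 to 88.7 and 14.8 to 17.8 CPM after ERI2 siRNA, against 84.0 to 88.4 and 15.3 to 17.4 CPM in control libraries, and both overlapped. DDX19A with DDX19B, and DDX39A with DDX39B, are similar enough that the authors' counting could split their reads.

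Both mitochondrial members lay above the control libraries without passing in edgeR, DESeq2 or limma-voom, and 0 had an unadjusted p under 0.05. DDX28, a mitochondrial ribosome assembly factor, had 11.0, 11.7 and 10.2 CPM after ERI2 siRNA, against 9.44, 9.16 and 9.90 CPM in control libraries (0.21, adjusted p = 0.245 by edgeR). DHX30, a protein of mitochondrial RNA granules, had 284, 290 and 277 CPM after ERI2 siRNA, against 246, 252 and 276 CPM in control libraries (0.14, adjusted p = 0.265 by edgeR). In both genes the nearest libraries of the groups were closer to each other than to the rest of their own group. In all, the groups did not overlap for 14 of 43 members, 12 of them higher and 2 lower, or 27.9% and 4.65%. Of all genes tested 14.1% were higher and 15.6% lower without overlap, 29.7% together.

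DHX32 had 42.6, 38.6 and 35.3 CPM after ERI2 siRNA, against 47.3, 49.2 and 47.9 CPM in control libraries. The groups did not overlap, and the log2 fold change was -0.31 (SE 0.0825, adjusted p = 0.0345 by edgeR). DHX40, another member with no role assigned, had 112, 96.4 and 90.0 CPM after ERI2 siRNA, against 102, 124 and 121 CPM in control libraries, which overlap (-0.22, adjusted p = 0.147 by edgeR). DDX26B, whose present name INTS6L marks it as like an Integrator subunit, had 39.7, 39.1 and 39.0 CPM after ERI2 siRNA, against 45.8, 44.9 and 39.6 CPM in control libraries (-0.15, adjusted p = 0.259 by edgeR). DDX60, an interferon-induced antiviral protein, had 4.63, 4.81 and 2.94 CPM after ERI2 siRNA, against 5.40, 5.83 and 5.85 CPM in control libraries. Its groups did not overlap, and it did not pass (-0.46, adjusted p = 0.118 by edgeR). DDX59 and DHX57, with no role assigned, had log2 fold changes of -0.16 and 0.02.

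The 5 members below the count filter were DDX4, DDX25, DDX43, DDX53 and DDX60L. DDX4, a germ cell helicase, had 3, 3 and 2 counts after ERI2 siRNA and 6, 2 and 1 in control libraries. DDX25, a testis helicase, had 8, 7 and 10 counts after ERI2 siRNA and 9, 11 and 6 in control libraries. DDX43 and DDX53, known from testis and tumours, had 0 counts in every library. Where 0 counts were seen, an expected count of up to about 3 per library remains possible. Over total counts without TMM scaling that is 0.0919 to 0.103 per 1000000 after ERI2 siRNA and 0.0783 to 0.0997 in control libraries. DDX60L, the neighbour of DDX60, had 3, 3 and 2 counts after ERI2 siRNA and 0, 4 and 3 in control libraries. No difference was detectable in these 5 at this depth.

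No call but that of DHX34 was kept whichever library was left out. Without ERI2 siRNA replicate 2 or ERI2 siRNA replicate 3, DHX34 alone passed as higher, where 1.18% and 0.913% of all genes were higher and 1.11% and 1.01% lower. Without control replicate 2, DHX34 and DHX37 passed as higher, where 1.54% of all genes were higher and 2.19% lower. Without control replicate 3, DHX34 and DDX54 did, where 1.38% of all genes were higher and 1.09% lower. DHX32 passed in none of these 4 fits. Without ERI2 siRNA replicate 1 the higher members were DDX11, DDX39B, DDX41, DDX51, DHX34 and DHX37, where 7.31% of all genes were higher and 6.81% lower. Without control replicate 1 they were DDX11, DDX39B, DDX51, DDX55 and DHX34, where 6.33% of all genes were higher and 5.32% lower. DHX32 and DHX40 were lower in both.

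**Figure D3:**
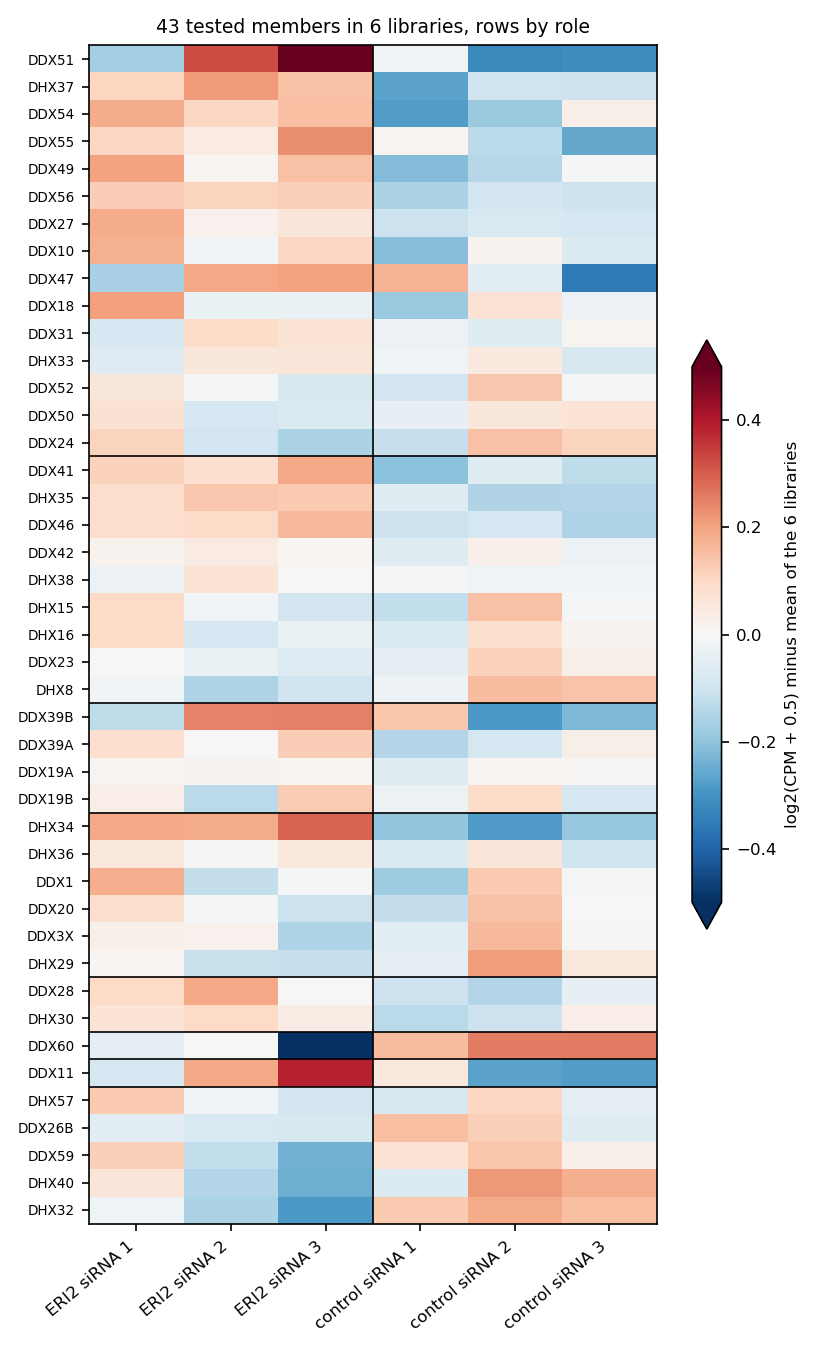
Each of the 43 tested members (rows, by role) in each of the 6 libraries (columns): log2(CPM + 0.5) minus the mean of the 6 libraries, red above and blue below. The rows of DDX51, DDX39B and DDX11 are red in ERI2 siRNA libraries 2 and 3 and blue in ERI2 siRNA library 1; the rows of DHX34 and DDX56 are red in all 3 ERI2 siRNA libraries and blue in all 3 control libraries.

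The difference between the groups had opposite signs in replicate 1 and in replicates 2 and 3 for 23 of 43 members. That is 53.5%, near the 47.5% of all genes, and is not read as a result about the family. Replicate 1 gave the members a median difference of 0.13 and replicates 2 and 3 gave 0.05, against -0.005 and 0.002 over all genes (log2 of CPM + 0.5). ERI2 siRNA replicates 1, 2 and 3 held the highest level of 10, 8 and 11 members, and control replicates 1, 2 and 3 that of 1, 12 and 1. The lowest level was in ERI2 siRNA replicates 1, 2 and 3 for 2, 4 and 10 members, and in control replicates 1, 2 and 3 for 16, 5 and 6. Over all tested genes each library held the highest level of 12.6% to 22.7% and the lowest of 12.2% to 21.2%. The largest gaps were in DDX51, DDX39B, DDX47 and DDX11.

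DDX51, a large-subunit assembly helicase, had 36.0, 51.0 and 57.7 CPM after ERI2 siRNA, against 40.1, 32.3 and 32.6 CPM in control libraries. The differences were -0.15 between the libraries numbered 1 and 0.73 between the others, and it did not pass over all 6 libraries (0.46, adjusted p = 0.0552 by edgeR; from 1.88e-05 to 0.235 over 15 alternatives). DDX11, a DNA helicase of sister chromatid cohesion, had 159, 193 and 220 CPM after ERI2 siRNA, against 175, 140 and 139 CPM in control libraries. Its differences were -0.14 and 0.56, and it did not pass either (0.33, adjusted p = 0.0813 by edgeR; from 3.67e-05 to 0.327 over 16 alternatives). DDX47, another ribosome assembly helicase, had 5.13, 6.71 and 6.73 CPM after ERI2 siRNA, against 6.60, 5.56 and 4.43 CPM in control libraries, with differences of -0.33 and 0.40. In DDX39B they were -0.27 and 0.51. DHX40, DDX1, DDX24 and DDX18 ran the other way, with 0.13, 0.36, 0.22 and 0.39 between the libraries numbered 1 and -0.40, -0.13, -0.26 and -0.06 between the others. With replicates 2 and 3 alone 10 members passed as higher and 7 as lower, where 13.9% and 14.1% of 18915 genes did. DDX51 and DDX11 were among those 10 and DHX40 and DDX24 among the 7.

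**Figure D4:**
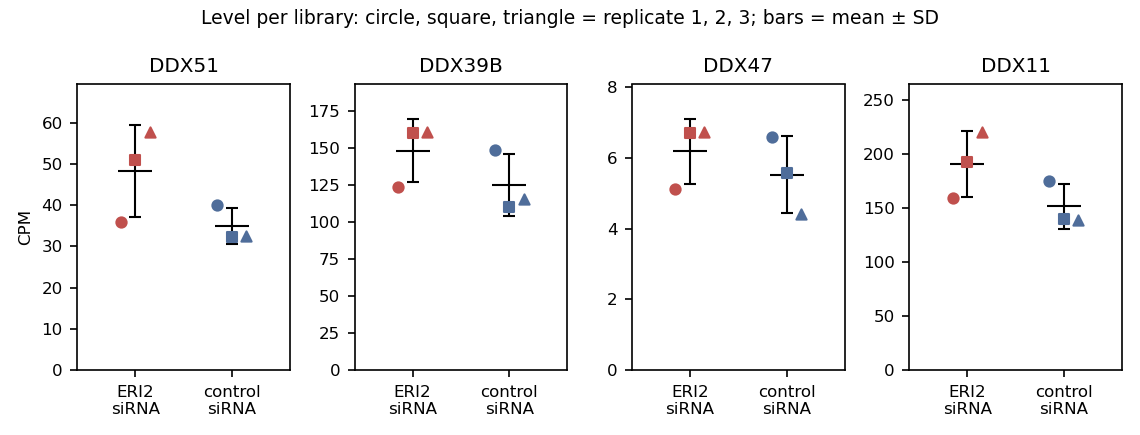
Level in CPM (y axis, from 0) of the 4 members with the largest gap between replicate 1 and replicates 2 and 3, ERI2 siRNA in red and control siRNA in blue, mean and SD as bars. The circle, replicate 1, is the lowest of the ERI2 siRNA libraries and the highest of the control libraries in all 4.

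**Figure D5:**
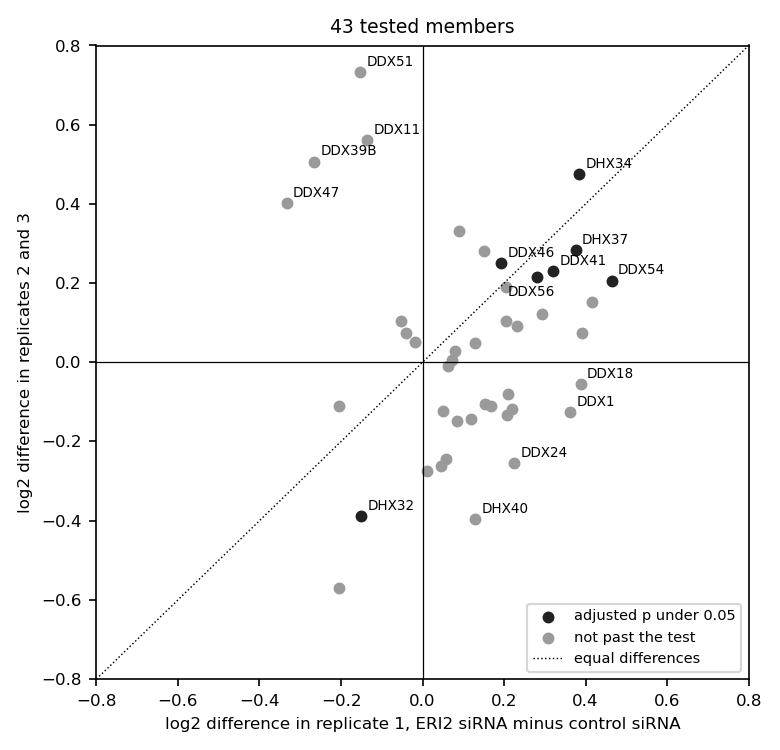
Log2 difference of ERI2 siRNA minus control siRNA in replicate 1 (x axis) and in replicates 2 and 3 (y axis) for the 43 tested members, black where the adjusted p over all 6 libraries is under 0.05. The 6 higher members past the test lie in the upper right and DHX32 in the lower left, while 23 members lie in the quadrants of opposite sign.

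Other genes of helicase biology were read from the same fit. Of 23 RNA helicases without a DDX or DHX name 21 were tested, and 1 rose and 2 fell. Of all tested genes 4.29% rose and 4.25% fell. EIF4A1, a DEAD-box subunit of the cap-binding complex, rose (0.46, adjusted p = 0.0451 by edgeR). It had 37.1, 54.0 and 50.7 CPM after ERI2 siRNA, against 40.5, 31.3 and 30.9 CPM in control libraries, which overlap in the libraries numbered 1. EIF4A2, of the same list, ran the other way without passing (-0.15, adjusted p = 0.243 by edgeR). It had 401, 408 and 364 CPM after ERI2 siRNA, against 419, 450 and 436 CPM in control libraries, without overlap. The RNA sensor IFIH1 fell to 2.24 ± 0.122 CPM with ERI2 siRNA, against 4.43 ± 0.372 CPM with control siRNA (SD, n = 3 each; -0.98, adjusted p = 0.00582 by edgeR). ASCC3, a helicase of ribosome rescue and DNA repair, fell to 257 ± 12.9 CPM with ERI2 siRNA, against 310 ± 17.4 CPM with control siRNA (-0.27, adjusted p = 0.0439 by edgeR). The median log2 fold change of the list was 0.08. DESeq2 called 2 higher and 2 lower and limma-voom 0 higher and 2 lower. Over all tested genes the shares were 5.48% and 5.45% in DESeq2, and 4.18% and 3.99% in limma-voom. None of the 7 genes left out by name passed in edgeR, DESeq2 or limma-voom, with DDX6 at -0.19 and DDX5 at 0.18 in log2 fold change. An unadjusted p under 0.05 was seen for 1 of them, DDX6, where 13.4% of all tested genes were higher and 13.1% lower.

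Some proteins with a G-patch or MIF4G domain bind and stimulate helicases, which was not checked for each protein listed here. Of 33 with such a domain, 4 rose and none fell, where 4.29% and 4.25% of all tested genes did. Their median log2 fold change was 0.05. The unadjusted p was under 0.05 for 6 higher and 3 lower, where 13.4% and 13.1% of all tested genes were. DESeq2 called 5 higher and limma-voom 4, both 0 lower, where the tools called 5.48% and 4.18% of all genes higher and 5.45% and 3.99% lower. CHERP had 49.2, 53.8 and 48.7 CPM after ERI2 siRNA, against 36.3, 34.4 and 39.4 CPM in control libraries. GPATCH4, a nucleolar G-patch protein, had 51.5, 49.6 and 50.0 CPM after ERI2 siRNA, against 36.3, 39.8 and 34.4 CPM in control libraries. The groups did not overlap in either, and the log2 fold changes were 0.46 and 0.45 (adjusted p = 0.00670 by edgeR for both). NOM1, a nucleolar MIF4G protein, had 94.7, 94.9 and 97.3 CPM after ERI2 siRNA, against 81.5, 81.6 and 81.0 CPM in control libraries (0.23, adjusted p = 0.0391 by edgeR). RBM6, a G-patch protein of splicing, had 193, 211 and 225 CPM after ERI2 siRNA, against 180, 161 and 158 CPM in control libraries (0.34, adjusted p = 0.0219 by edgeR).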

How the data were processed

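The authors deposited raw read counts per gene name, whole numbers with a different total in each library. The programs named in the submitters' processing notes are HTSeq 0.6.1p1, TopHat2 2.0.10 and CASAVA 1.8.2, with hg19 as the build and no role for any. Strand setting and annotation were not given in the sources used here, so overlapping, antisense and near-identical genes may share reads. Low counts were removed with filterByExpr, libraries were scaled by TMM, and all genes were tested in edgeR 4.0.16 under R 4.3.3 (robust quasi-likelihood, Benjamini-Hochberg adjustment). Standard errors are the log2 fold change over the root of the F statistic. Alternatives were DESeq2 1.42.0, limma 3.58.1 (voom), other scalings, filters and thresholds, left-out libraries, summed paralogs and a replicate term. No transcript length was used, so levels are not compared between genes, and the miRNA counts and protein sequences were not used here. Replicates differed by more than counting noise (chi-square per degree of freedom at least 5.03).

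The members, roles, lists and tests were chosen with earlier results of these data known, and the promoter motifs after the values were seen. Genes named with values were ERI2, members past the test, the 3 smallest p in each role, the 5 highest and 5 lowest levels, the 4 largest gaps between replicates, members under the count filter, and genes past the test in the other lists. Further members and other genes were named after their values were seen.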

Additional observations from a re-analysis of the deposited data

How the results depend on the processing

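The members' median log2 fold change lay between 0.03 and 0.10 in all 15 alternatives, 0.10 with total library size and 0.03 to 0.09 when a library was left out. Across all genes the counts, 809 higher and 800 lower, became 1290 higher with no count filter, 463 lower with total library size, 139 and 145 at an adjusted p under 0.01, 492 and 211 with a log2 fold change of 0.5 or more in size, and 2622 and 2670 with replicates 2 and 3 alone. Leaving out a library gave 176 to 1424 higher and 195 to 1327 lower. Among the members, 6 higher and 1 lower became 10 and 0 with total library size, 10 and 7 with replicates 2 and 3 alone, 1 and 0 at an adjusted p under 0.01, and 0 and 0 with the fold threshold of 0.5. Leaving out a library gave 1 to 6 higher and 0 to 2 lower. Same-numbered libraries did not deviate from their group means in the same direction (correlations of -0.40, -0.12 and -0.12). These correlations cannot show whether such libraries shared a culture or a day, which the labels do not state. The replicate block left 105 higher and 98 lower genes, and among the members 1 and 0, the 1 being DHX34. No named member that was recomputed changed sign in an alternative. Of the 7 members past the test, DHX34 passed in 15 of 15 alternatives, and DHX37, DDX41, DHX32, DDX54, DDX46 and DDX56 missed the threshold in 5, 6, 6, 7, 8 and 8. These 15 leave out the stricter adjusted p and the fold threshold of 0.5, which no member passed, DHX34 included. Summing DDX19A with DDX19B, DDX39A with DDX39B, DDX60 with DDX60L or, chosen after seeing the data, DDX11 with the pseudogene row DDX12P ended or added no call. With no count filter 46 members were tested, all but DDX43 and DDX53, and none of the 5 members below the filter was called. Depth allowed no further statement on these 5. The causes of these differences were not tested.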

Other observations

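Pseudogene and antisense rows of some members lie outside the name rule. DDX12P, a pseudogene copy of DDX11, had 59.0, 75.9 and 85.9 CPM after ERI2 siRNA, against 69.4, 51.9 and 47.8 CPM in control libraries, where, as in DDX11, the libraries numbered 1 ran opposite to the others (0.38 on the log2 scale, adjusted p = 0.0967 by edgeR). DDX11-AS1, the antisense row of DDX11, had 6.02, 7.36 and 8.45 CPM after ERI2 siRNA, against 7.39, 4.97 and 6.10 CPM in control libraries (0.24, adjusted p = 0.382 by edgeR). Reads of DDX11, its copy and its antisense row may be counted together, and how far they were was not tested. DDX50P1 had 4.82, 4.51 and 6.83 CPM after ERI2 siRNA, against 3.61, 3.84 and 3.38 CPM in control libraries, without overlap (0.57, adjusted p = 0.0607 by edgeR), while DDX50 itself had a log2 fold change of -0.05. DDX10P1 had 16, 27 and 16 counts after ERI2 siRNA, against 10, 13 and 7 in control libraries (1.04, adjusted p = 0.107 by edgeR).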
